A study of Mus musculus with 64 samples.

Results

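The transcription factor genes tied to microglial identity were followed through the response of the mouse retina to an adeno-associated virus (AAV). They were Sall1, Spi1, Irf8, Maf, Mef2a, Mef2c, Runx1, Cebpa and Cebpb, taken by symbol from the table of batch-corrected counts. All 9 members were found among the 25239 genes of the table, and all 9 passed the filter on low counts that left 13584 genes for testing. The microglia came from Cx3cr1CreER:R26-tdTomato heterozygotes, kept on the C57BL/6J strain, in which tamoxifen eye drops switched on tdTomato in cells that use the Cx3cr1 promoter. Every animal therefore carried the same 2 alleles and had received tamoxifen, controls included. Males and females of 3, 9 and 18 months either were naive (not injected) or were collected 12 or 28 days after an intravitreal injection of 2 µL of an AAV2 null vector, which holds a CMV promoter, a WPRE and a TLR9-inhibiting sequence but no transgene. The dose was 1e10 genome copies per eye in all injected groups. The naive eyes received no sham injection, so the vector and the injection cannot be told apart.

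Each library was made from 600 live tdTomato-high cells sorted from 1 retina, and 62 libraries were compared. They formed 18 groups of 2 to 4 libraries by age, sex and state. With the sexes together these gave 7 naive, 8 day 12 and 7 day 28 libraries at 3 months, 5, 7 and 7 at 9 months, and 7 of each at 18 months. Total counts ran from 1468478 to 9836173 per library (median 4188992), so 3 counts corresponded to 0.361 to 2.12 CPM (counts relative to the total of the library). The defining microglia genes P2ry12, Tmem119, Siglech, Cx3cr1 and Csf1r had counts in all 62 libraries. In bulk libraries such as these, a smaller share of cells with a transcript and fewer transcripts per cell cannot be told apart.

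Some libraries stood apart from their groups and are named here because results below rest on them. The library of 9-month-old male day 12 replicate 1 had exactly 2634 counts for both Irf8 and Cebpb, in the corrected and in the uncorrected table, which was 1030 CPM for each gene. Replicate 2 of the same group and replicates 1 and 2 of the 18-month-old females at day 12 held 82900, 90700 and 86800 CPM in a list of 20 homeostatic microglia genes, against 17000 to 62200 CPM in the other day 12 libraries and 107000 to 172000 CPM in naive libraries. The library of 18-month-old female day 28 replicate 1 was left out of the fits by the rule that chose the libraries, and values with it kept are given where a call changes. A library titled as 18-month-old male day 28 replicate 4 carries a day 12 time-point label and was kept as day 28. Sums of T cell markers had medians of 0 to 2.48 CPM by age in naive and 101 to 220 CPM in day 12 microglia, and monocyte markers had medians of 11.1 to 26.2 CPM in naive and 28.7 to 179 CPM in day 12 microglia. Border macrophage markers moved the other way, from medians of 149 to 284 CPM to 4.91 to 7.35 CPM. Neutrophil markers had medians of at most 1.91 CPM in every age and state.

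Microglia are the resident macrophages of the retina and brain, and their state is held by a small set of DNA-binding proteins. PU.1, encoded by Spi1, opens myeloid enhancers together with IRF8, RUNX1 and the C/EBP factors, while SALL1, MAF and the MEF2 factors are associated with the genes that mark the resting microglial state. When microglia are activated, homeostatic genes such as P2ry12 are lowered and inflammatory and interferon-responsive genes are raised. C/EBP beta is best known as a factor of inflammatory gene transcription in macrophages.

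In naive microglia the members differed widely in level. Scaled to the length of all annotated exons, Spi1 (chr2:91082390-91115756, plus strand, GRCm38) was highest, at 113 to 187 CPM per kilobase with a median of 153 over 19 naive libraries. Cebpb (chr2:167688915-167690418, plus strand) followed with a median of 91.8, Irf8 (chr8:120736358-120756694, plus strand) with 51.3 and Mef2c (chr13:83504034-83667080, plus strand) with 46.8 CPM per kilobase. Sall1 (chr8:89027235-89044162, minus strand) had a median of 41.2, Mef2a (chr7:67231163-67372858, minus strand) 31.1 and Maf (chr8:115682942-115707794, minus strand) 23.9. Runx1 (chr16:92601466-92826149, minus strand) was at 6.68 and Cebpa (chr7:35119293-35121928, plus strand) at 2.23 CPM per kilobase. In this order the range of each member overlapped that of its neighbour, except that all Runx1 values (3.3 to 9.23) lay below all Maf values (14.2 to 34.1). The exon lengths come from the GENCODE vM21 annotation and not from the transcripts these cells use, so the order is approximate.

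Promoter sequence was taken from RefSeq (build GRCm38.p6) for 7 members with 13 annotated starts, while the promoters of Spi1 and Maf were not analysed here. The promoters of Irf8, a member with no called change from naive, and of Mef2c and Mef2a, which fell together, are shown so that they can be read beside those results. Each is the 250 bases before the start, and capitals mark matches to the interferon-gamma activated site, GAS (TTCNNNGAA, which reads the same on both strands).
Irf8, chr8:120736108-120736357, plus strand: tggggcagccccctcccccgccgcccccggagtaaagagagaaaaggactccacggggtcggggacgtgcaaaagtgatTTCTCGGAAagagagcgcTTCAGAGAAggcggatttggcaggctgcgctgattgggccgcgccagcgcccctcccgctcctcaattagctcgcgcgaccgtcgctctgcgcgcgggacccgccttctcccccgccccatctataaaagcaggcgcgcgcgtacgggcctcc
Mef2c, chr13:83503784-83504033, plus strand: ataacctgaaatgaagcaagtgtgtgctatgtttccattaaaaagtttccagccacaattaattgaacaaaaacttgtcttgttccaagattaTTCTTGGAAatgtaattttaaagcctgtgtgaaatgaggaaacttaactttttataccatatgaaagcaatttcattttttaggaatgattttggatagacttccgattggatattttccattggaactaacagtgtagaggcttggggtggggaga
Mef2a, chr7:67372859-67373108, minus strand: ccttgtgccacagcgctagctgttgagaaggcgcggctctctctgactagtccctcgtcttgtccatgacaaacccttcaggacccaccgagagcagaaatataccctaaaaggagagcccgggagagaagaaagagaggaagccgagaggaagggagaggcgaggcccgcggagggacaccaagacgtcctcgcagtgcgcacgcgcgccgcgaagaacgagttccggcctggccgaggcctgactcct

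The Irf8 promoter held GAS matches beginning 171 and 153 bases before its start, and the first Mef2c promoter held 1 beginning 157 bases before. The motif was present in 7.02% of the 32851 promoters of the same length. The other motifs were searched on both strands and had no match before any of the 13 member starts. They were the interferon-stimulated response element (2.98% of promoters), an ETS core bound by PU.1 (GAGGAAGT, 2.44%), a RUNX motif (TGTGGT, 14% of promoters), a C/EBP motif (TTGCNNCAA, 1.74%) and a MEF2 motif (CTAAAAATA, 0.469%). The 3 promoters differed in composition, with 67.2% G and C for Irf8, 61.6% for Mef2a and 33.6% for Mef2c, against a median of 52.4% over all promoters. A match is a description of the letters and does not show that a factor binds there.

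**Figure D1:**
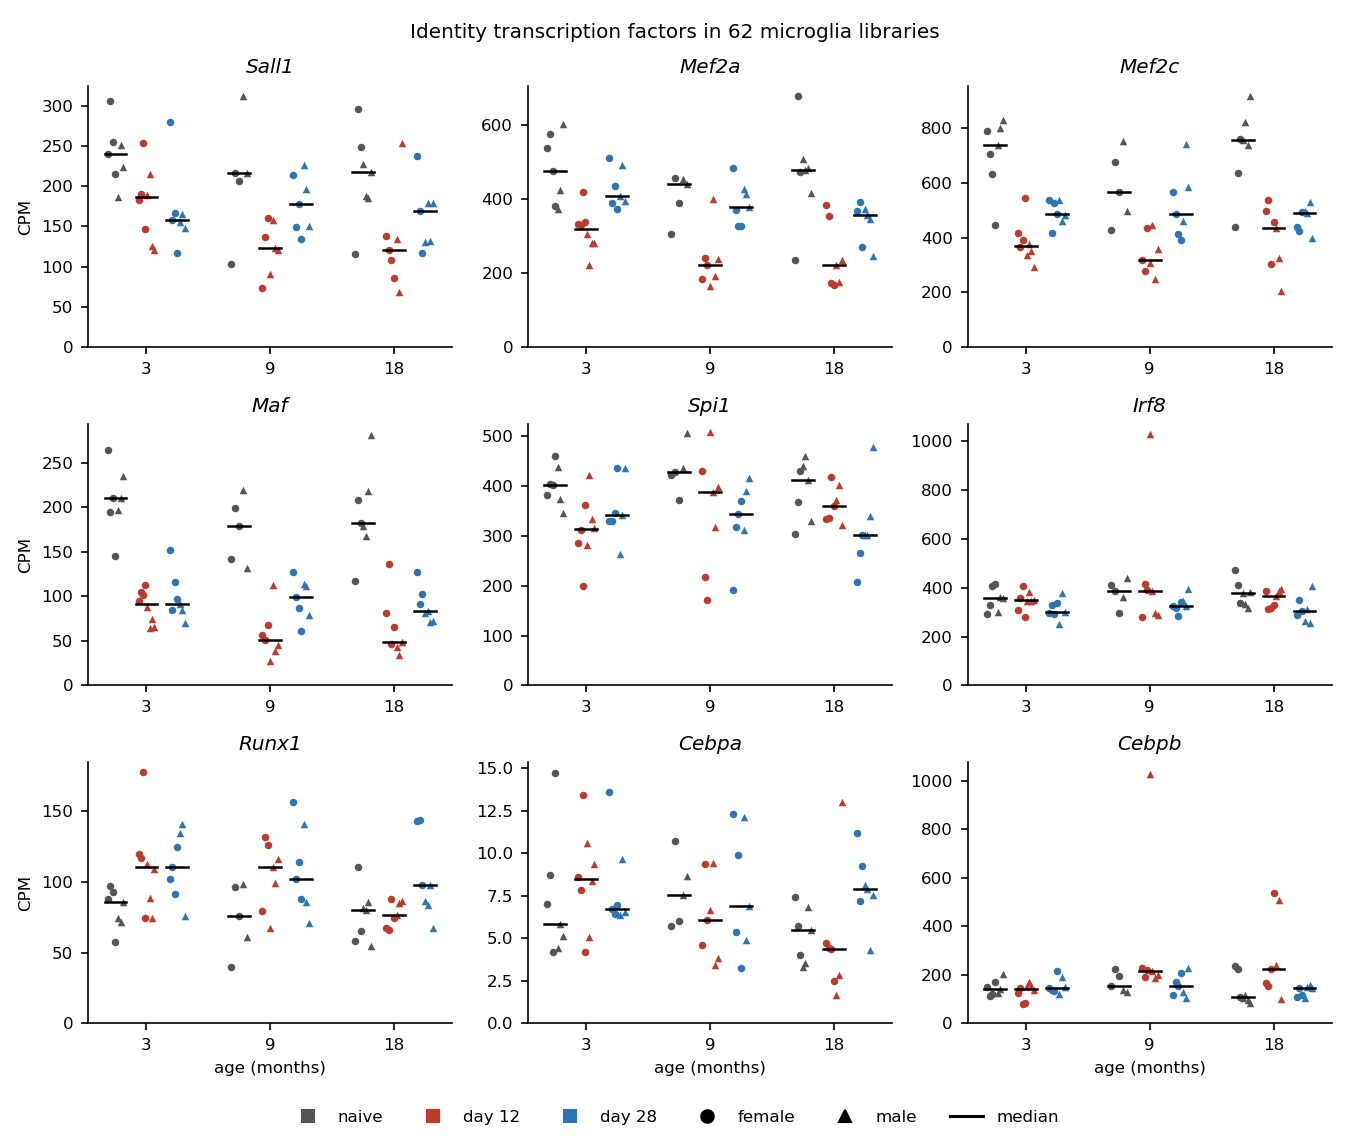
CPM of the 9 members from corrected counts (y axis, linear, from 0) in each of the 62 libraries by age (x axis) and state (colour), with circles for females, triangles for males and a bar at the median. The medians of Maf, Mef2a and Mef2c are lower at day 12 than in naive microglia at every age, 1 library is at 1030 CPM of Irf8 where all others are below 500 CPM, and Cebpb has 3 libraries above 500 CPM, all at day 12.

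The first comparison asked whether the identity factors changed by day 12 after the vector. A gene was called when its adjusted p in edgeR's quasi-likelihood test was under 0.05. At 3 months 3 of 9 members were called, all lower, where 16.6% of all tested genes were called (9.42% higher and 7.23% lower). At 9 months 5 members were called, 4 lower and 1 higher, against 18.4% of all genes (10.5% higher and 7.91% lower). At 18 months 5 were called, again 4 lower and 1 higher, against 15.6% of all genes (9.53% higher and 6.02% lower). The members' median log2 fold change was -0.35, -0.40 and -0.15 at 3, 9 and 18 months, beside 0.00, 0.06 and 0.03 over all tested genes.

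Maf, a basic leucine zipper factor of macrophage identity, fell furthest. At 3 months the 7 naive libraries had 145 to 265 CPM (median 211) and the 8 day 12 libraries had 64.9 to 113 CPM (median 91.3). At 9 months the 5 naive libraries had 132, 142, 179, 199 and 220 CPM and the 7 day 12 libraries 27.1 to 113 CPM (median 50.8). At 18 months the naive libraries had 117 to 281 CPM (median 182) and the day 12 libraries 34.3 to 137 CPM (median 48.7). All day 12 libraries lay below all naive libraries at 3 and 9 months, while at 18 months the ranges overlapped. The only day 12 library above the lowest naive one at 18 months was female replicate 2, one of those with high homeostatic sums. The log2 fold change of Maf was -1.26 at 3 months (SE 0.20, adjusted p = 4.87e-06), -1.62 at 9 months (SE 0.23, adjusted p = 4.3e-07) and -1.68 at 18 months (SE 0.22, adjusted p = 6.51e-08, edgeR), which left 0.418, 0.325 and 0.312 of the naive level. Groups without overlap, above or below, were found for 6.46% of all genes at 3 months, 4.72% at 9 months and 2.23% at 18 months, and for 1, 1 and 0 members. Against a null of a log2 fold change of 1 (edgeR's glmTreat), Maf alone was called, at 9 and 18 months with adjusted p = 0.0311 and 0.0121, and no member was called at 3 months. That stricter rule called 3.35%, 4.14% and 3.26% of all genes at 3, 9 and 18 months.

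Border macrophages also use Maf, and their markers fell with it in these libraries. Among the naive libraries the sum of 6 border macrophage markers ran from 6.53 to 461 CPM, and day 12 libraries had 0 to 75.1 CPM. The naive libraries with the lowest sums, 18-month-old female replicate 3 at 6.53 CPM and male replicate 4 at 14.5 CPM, had 182 and 281 CPM of Maf, above every day 12 library of the series. The part of border macrophage transcripts in the fall of Maf was not tested.

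Mef2c, a MADS-box factor that restrains inflammatory activation of microglia, fell at all ages by similar amounts. At 3 months it had 446 to 827 CPM (median 735) in naive and 293 to 543 CPM (median 371) in day 12 libraries. At 9 months the naive values were 427, 495, 565, 674 and 750 CPM, and day 12 values ran from 250 to 447 CPM (median 317). At 18 months naive libraries had 439 to 916 CPM (median 756) and day 12 libraries 206 to 536 CPM (median 433). The ranges overlapped at each age, at the lowest naive libraries. The log2 fold change was -0.90 (SE 0.16, adjusted p = 2.04e-05), -0.78 (SE 0.18, adjusted p = 0.00108) and -0.89 (SE 0.17, adjusted p = 7.16e-05) at 3, 9 and 18 months in edgeR's test.

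Mef2a, its relative in the same DNA-binding family, also fell at all ages. At 3 months the naive libraries had 373 to 603 CPM (median 475) and the day 12 libraries 222 to 419 CPM (median 319). At 9 months the naive values were 307, 391, 440, 454 and 457 CPM and the day 12 range was 167 to 400 CPM (median 222). At 18 months naive libraries had 236 to 680 CPM (median 479) and day 12 libraries 168 to 384 CPM (median 223). The highest day 12 value at 9 months, 400 CPM, and the highest at 18 months, 384 CPM, came from libraries with high homeostatic sums. The log2 fold change was -0.62 (SE 0.18, adjusted p = 0.0103) at 3, -0.84 (SE 0.20, adjusted p = 0.00217) at 9 and -0.97 (SE 0.19, adjusted p = 0.000145) at 18 months in edgeR's test. At 3 months the call was lost without naive male replicate 3 (-0.51, adjusted p = 0.0612).

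Sall1, a zinc finger factor that among brain macrophages is typical of microglia, was called lower at 9 and 18 months. At 3 months it had 187 to 305 CPM (median 240) in naive and 121 to 254 CPM (median 186) in day 12 libraries, a log2 fold change of -0.41 (95% interval -0.84 to 0.01, adjusted p = 0.196, edgeR). At 9 months the naive values were 103, 206, 216, 216 and 312 CPM and the day 12 range was 73.6 to 161 CPM (median 123). At 18 months the naive range was 116 to 296 CPM (median 217) and the day 12 range 68.2 to 254 CPM (median 121). At 9 months 1 naive library, female replicate 1, lay within the day 12 range. At 18 months every naive library except the highest, female replicate 2 at 296 CPM, lay within the day 12 range. The top of that range was male replicate 3 at 254 CPM, with the next day 12 library at 138 CPM. The lowest naive library was female replicate 1 at 116 CPM. The log2 fold change of Sall1 was -0.80 at 9 months (SE 0.24, adjusted p = 0.014) and -0.70 at 18 months (SE 0.22, adjusted p = 0.0248) in edgeR's test. The call at 9 months was lost without day 12 female replicate 1 (-0.67, adjusted p = 0.0518) or naive male replicate 1 (-0.66, adjusted p = 0.0971). At 18 months it was lost without day 12 female replicate 4 (adjusted p = 0.0594), day 12 male replicates 1 (0.066) or 2 (0.13), or naive female replicates 2 (0.0933) or 3 (0.0555). The 18-month value was smallest without day 12 male replicate 2 (-0.52), and the call was also lost with the ages fitted alone (-0.68, adjusted p = 0.0711).

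**Figure D2:**
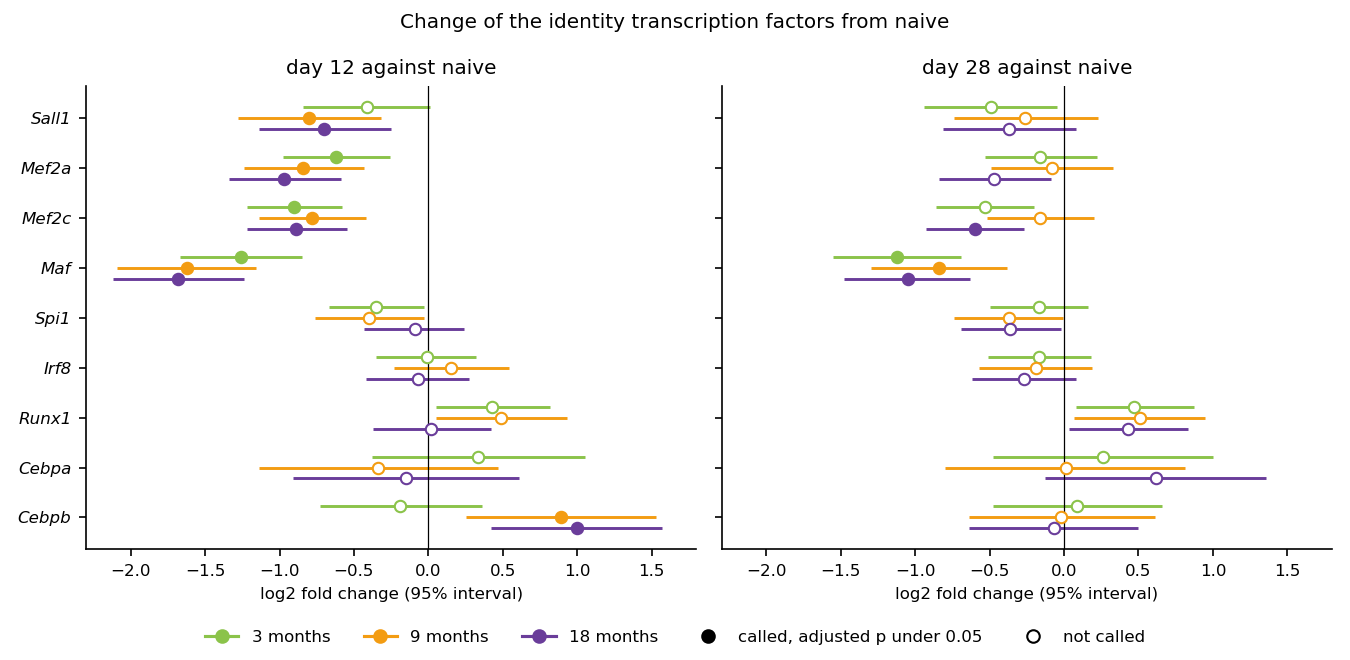
Log2 fold change of each member from naive (x axis) at day 12 (left) and day 28 (right) with its 95% interval, by age. Filled points passed an adjusted p of 0.05. Maf is filled in all 6 comparisons, Mef2c in 4, Mef2a in 3 and Sall1 in 2, all below 0, and Cebpb is filled above 0 at day 12 at 9 and 18 months.

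Cebpb was the only member called higher, at 9 and 18 months, and both calls rested on single libraries. At 3 months it had 113 to 205 CPM (median 142) in naive and 79.5 to 169 CPM (median 143) in day 12 libraries. At 9 months the naive values were 130, 138, 153, 196 and 223 CPM, and 6 of the 7 day 12 libraries ran from 186 to 230 CPM, with the seventh, male replicate 1, at 1030 CPM. At 18 months naive libraries had 85.1 to 237 CPM (median 111) and day 12 libraries 102 to 537 CPM (median 224), with female replicate 4 at 537 and male replicate 2 at 509 CPM. The log2 fold change was -0.19 (SE 0.27, adjusted p = 0.733), 0.89 (SE 0.32, adjusted p = 0.0435) and 1.0 (SE 0.29, adjusted p = 0.0112) at 3, 9 and 18 months in edgeR's test. Without the library with equal counts the 9-month value was 0.38 (adjusted p = 0.361), and the call was also lost on leaving out any of 7 other libraries, with values of 0.82 to 0.93. These were day 12 female replicates 1, 2 and 3, naive female replicates 1 and 3 and naive male replicates 1 and 2. It was lost too with the left-out day 28 library kept (0.89, adjusted p = 0.0521) and with the ages fitted alone (0.88, adjusted p = 0.104). Without female replicate 4 the 18-month value was 0.71 (adjusted p = 0.0833), and without male replicate 2 it was 0.63 (adjusted p = 0.153). On uncorrected counts without a batch term the 18-month value was 0.69 and was not called (adjusted p = 0.092, edgeR). The CPM values here are of corrected counts, and the lower uncorrected range of these day 12 libraries is given under the other observations. Fits that left out a library also differed from the main fit in their estimate of spread, as described with the processing.

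Those 2 libraries at 18 months also held the highest sums of 6 monocyte markers at that age, 1100 and 400 CPM, against 8.06 to 225 CPM in the other 5 day 12 libraries and 4.72 to 119 CPM in naive ones. The library with equal counts held 90.6 CPM in monocyte markers, within the 5.75 to 97.5 CPM of the day 12 libraries at 9 months. The part of monocyte transcripts in the Cebpb values was not tested.

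**Figure D3:**
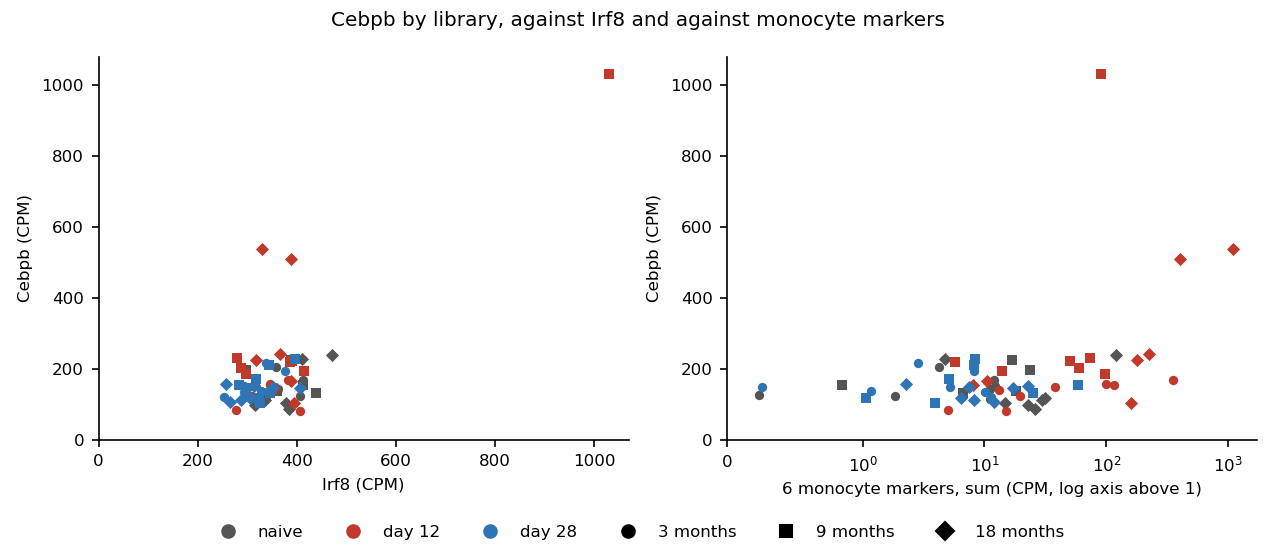
Cebpb (y axis, CPM) in each library against Irf8 (left, CPM) and against the sum of 6 monocyte markers (right, CPM, log axis above 1), with colour for state and shape for age. One 9-month-old day 12 library stands at 1030 CPM for both Cebpb and Irf8, and the 2 libraries of 18-month-old mice at 509 and 537 CPM of Cebpb have the highest monocyte marker sums of the series.

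Irf8, Spi1, Runx1 and Cebpa passed the test at neither day. Irf8, the interferon-inducible partner of PU.1, had medians of 357, 387 and 377 CPM in naive and 348, 385 and 365 CPM in day 12 microglia at 3, 9 and 18 months. Its log2 fold changes were -0.01 (95% interval -0.35 to 0.32), 0.15 (-0.23 to 0.54) and -0.07 (-0.42 to 0.27), so changes of the size seen for Maf lay outside these intervals. At 9 months the value turned to -0.16 without the library with equal counts. Apart from that library, Irf8 ran from 253 to 470 CPM over all ages and states.

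Spi1 had medians of 401, 427 and 412 CPM in naive and 314, 387 and 359 CPM in day 12 microglia. The ranges overlapped at each age, for example 345 to 460 against 199 to 421 CPM at 3 months. Its log2 fold changes were -0.35 (95% interval -0.67 to -0.03, adjusted p = 0.138), -0.40 (-0.76 to -0.03, adjusted p = 0.122) and -0.09 (-0.43 to 0.24, adjusted p = 0.779, edgeR). At 9 months it passed the test on leaving out day 12 female replicate 1 (-0.64, adjusted p = 0.0063) and on the second collection day alone (-0.84, adjusted p = 0.0304), and was at 0.05 on the first.

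Runx1, a runt-domain factor of blood and microglia development, had medians of 85.6, 75.8 and 80.3 CPM in naive and 111, 111 and 76.5 CPM in day 12 microglia. Its log2 fold changes were 0.43 (95% interval 0.05 to 0.82, adjusted p = 0.122), 0.49 (0.05 to 0.93, adjusted p = 0.118) and 0.02 (-0.37 to 0.42, adjusted p = 0.97, edgeR). At 9 months it passed the test on leaving out naive female replicate 2 (0.63, adjusted p = 0.0494). Cebpa, a factor of myeloid differentiation, was at 1.7 to 14.7 CPM in all libraries, from 8 to 106 counts each. Its log2 fold changes of 0.33, -0.34 and -0.15 had SEs of 0.36 to 0.40, and none was called.

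The second comparison asked which members differed from naive at day 28. At 3 months 1 member was called (2.78% of all genes), 1 at 9 months (4% of all genes) and 2 at 18 months (4.82% of all genes), all lower. Maf was called at each age and Mef2c at 18 months. The glmTreat rule called no member, and 0.493%, 0.582% and 0.78% of all genes.

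Maf had 70.2 to 152 CPM (median 91.1), 61 to 127 CPM (median 99.4) and 71.5 to 128 CPM (median 83.3) at day 28 at 3, 9 and 18 months. The day 28 libraries at 9 months lay below all naive libraries, and at 3 and 18 months the ranges overlapped. No member other than Maf was without overlap, which held for 2.58%, 3.04% and 1.99% of all genes at 3, 9 and 18 months. The log2 fold change of Maf was -1.12 (SE 0.21, adjusted p = 0.000461), -0.84 (SE 0.23, adjusted p = 0.0225) and -1.05 (SE 0.21, adjusted p = 0.000822) in edgeR's test. The 9-month call was lost without naive male replicate 1 (-0.63, adjusted p = 0.142), naive female replicate 2 (0.0507), day 28 female replicate 4 (0.0513) or day 28 male replicate 4 (0.0725).

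Mef2c had 415 to 537 CPM (median 486) at 3, 390 to 742 CPM (median 485) at 9 and 399 to 531 CPM (median 488) at 18 months on day 28. Its log2 fold changes were -0.53 (SE 0.16, adjusted p = 0.0638), -0.16 (SE 0.18, adjusted p = 0.7) and -0.60 (SE 0.16, adjusted p = 0.0202) in edgeR's test. The 18-month call was lost without day 28 female replicate 3 (adjusted p = 0.0614) or naive female replicate 3 (-0.50, adjusted p = 0.0819). It was also lost with the ages fitted alone (-0.59, adjusted p = 0.0685) and with no filter on low counts (-0.58, adjusted p = 0.0896). Uncorrected counts without a batch term lost it too (-0.58, adjusted p = 0.172, edgeR). The calls of Maf and Mef2c at 18 months stood with the left-out library kept. A 3-month call of Mef2c appeared without naive female replicate 4 (-0.60, adjusted p = 0.0327). The same call appeared in DESeq2 (-0.53, adjusted p = 0.0237) and with the ages fitted alone (-0.52, adjusted p = 0.015, edgeR).

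Of the other members, Mef2a had medians of 408, 378 and 357 CPM at day 28 and log2 fold changes of -0.16, -0.08 and -0.47, with an adjusted p of 0.152 for the last. That value passed the test on leaving out naive female replicate 1 (-0.63, adjusted p = 0.0379, edgeR). Sall1 had medians of 158, 178 and 169 CPM and log2 fold changes of -0.49, -0.26 and -0.37 (adjusted p = 0.295, 0.63 and 0.42, edgeR). Runx1 was at 0.47, 0.51 and 0.43 with 95% intervals that lay above 0 before adjustment (adjusted p = 0.236, 0.191 and 0.239, edgeR), and at 9 months it passed on the first collection day alone (1.38, adjusted p = 0.00948) and was at 0.30 on the second. Spi1 was at -0.17, -0.37 and -0.36, Irf8 at -0.17, -0.19 and -0.27, Cebpa at 0.26, 0.01 and 0.62 and Cebpb at 0.09, -0.02 and -0.07, none of them called. The intervals for Cebpb at day 28 reached at most 0.66, and those for Irf8 ran from -0.62 to 0.19.

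Day 28 was also compared with day 12 directly. At 3 months 0 of 9 members were called and 2.79% of all genes, and DESeq2 called 0. There 2 members had an unadjusted p under 0.05, Mef2a (0.46, adjusted p = 0.17) and Mef2c (0.37, adjusted p = 0.227, edgeR). With the ages fitted alone Mef2a was called at 3 months (0.48, adjusted p = 0.0251, edgeR). At 9 months 4 members were called, against 9.32% of all genes. Maf was higher by 0.78 (SE 0.21, adjusted p = 0.0135), Mef2a by 0.75 (SE 0.19, adjusted p = 0.00618) and Mef2c by 0.62 (SE 0.16, adjusted p = 0.0101), and Cebpb had -0.90 (SE 0.29, adjusted p = 0.0339) on the log2 scale. Mef2c was not called without day 28 male replicate 3 (0.53, adjusted p = 0.058). With the ages fitted alone only Mef2a stayed called at 9 months (0.77, adjusted p = 0.0264, edgeR). In that fit Maf (0.80, adjusted p = 0.0746), Mef2c (0.64, adjusted p = 0.0668) and Cebpb (-0.88, adjusted p = 0.106) were not called. At 18 months Cebpb alone was called, against 2.8% of all genes, with -1.07 (SE 0.29, adjusted p = 0.0251). Maf was at 0.62 there (adjusted p = 0.109) and passed without day 12 female replicate 2 (0.81, adjusted p = 0.0171), and Cebpa passed without day 12 male replicate 3 (1.42, adjusted p = 0.0213, edgeR). Without the library with equal counts the Cebpb value at 9 months was -0.39 (adjusted p = 0.383), and 5 other libraries each ended the call with values of -0.89 to -0.79. They were day 12 female replicate 3, day 28 female replicates 1 and 3 and day 28 male replicates 2 and 3. At 18 months the value was -0.78 without day 12 female replicate 4 and -0.70 without day 12 male replicate 2, neither called, and leaving out day 28 female replicate 2, 3 or 4 or day 28 male replicate 1 also ended the call (-1.13 to -1.01). With the left-out day 28 library kept it was -0.85 (adjusted p = 0.167), and with the disputed label read as day 12 it was -0.98 (adjusted p = 0.0592). With the ages fitted alone it was -1.08 (adjusted p = 0.0775). These comparisons share the day 12 libraries with those against naive.

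The fall of Maf and of the MEF2 genes was set beside the homeostatic genes these factors are associated with. The 20 homeostatic genes were counted in a list chosen with earlier results of these data known, so the count is not independent evidence of its direction. At day 12, 18, 17 and 18 of 20 were lower and 0 higher at 3, 9 and 18 months, with median log2 fold changes of -1.19, -1.33 and -1.15. At day 28, 3, 9 and 9 were lower, with medians of -0.49, -0.64 and -0.72. The named genes were Siglech, a surface lectin of microglia (-1.82, -2.29 and -1.69 at day 12), Slc2a5, a fructose transporter (-3.04, -3.01 and -2.51), and P2ry12, a purine receptor (-2.41, -2.78 and -1.94), all called. At day 28 Siglech was at -0.66, -0.75 and -1.39, Slc2a5 at -1.38, -1.88 and -1.89 and P2ry12 at -1.01, -1.15 and -1.12, and Slc2a5 was called at each age while Siglech and P2ry12 were called at 9 and 18 months.

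Summed over the 20 genes, naive medians were 132000 to 137000 CPM, day 12 medians 24600 to 40700 CPM and day 28 medians 75600 to 95700 CPM. The day 28 medians lay between those of the other states. At 3 months the median of Maf was 91.3 CPM at day 12 and 91.1 CPM at day 28, and the difference between those days was 0.14 (95% interval -0.27 to 0.55, adjusted p = 0.831, edgeR). In the 3 day 12 libraries with the highest homeostatic sums, Maf was at 81.3, 137 and 113 CPM, Mef2a at 384, 354 and 400 CPM and Mef2c at 497, 536 and 447 CPM, which lay within the day 28 range of their age except for Maf at 137 and Mef2c at 536 CPM, both above it, in the 18-month-old female replicate 2.

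**Figure D4:**
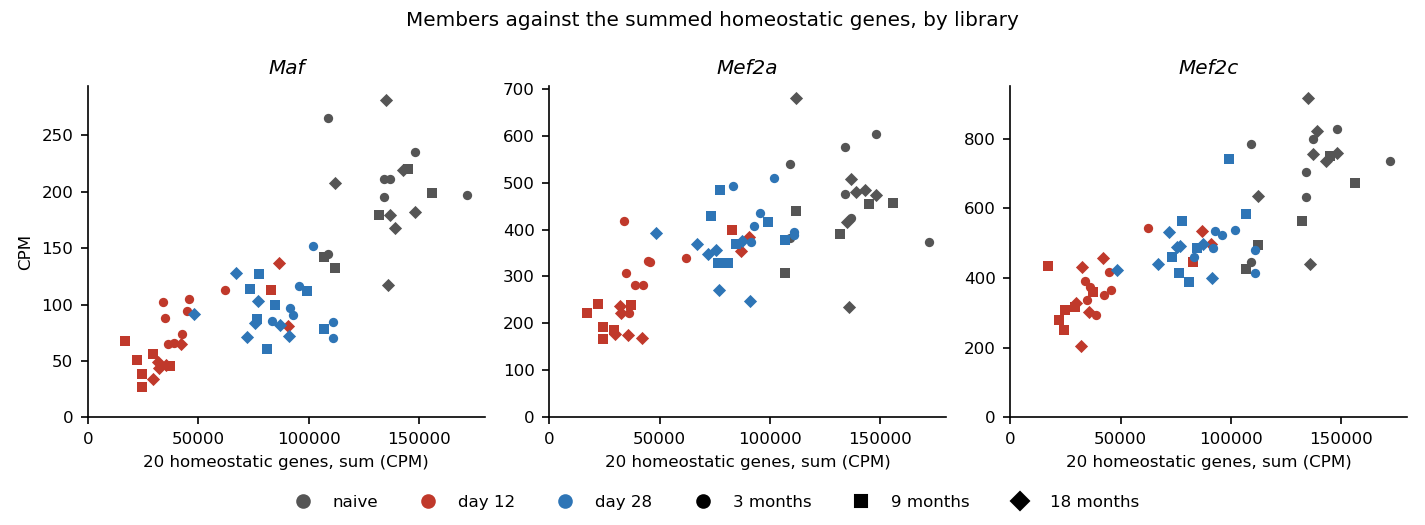
CPM of Maf, Mef2a and Mef2c (y axes, from 0) against the summed CPM of 20 homeostatic genes (x axis, CPM) in each library, with colour for state and shape for age. Naive libraries lie at the upper right, most day 12 libraries at the lower left, and most day 28 libraries between them on the x axis, with 3 day 12 libraries among those of day 28.

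Relatives and partners of the members were counted in a list of 29 genes, of which 25 were tested. At day 12, 5 were higher and 4 lower at 3 months, 4 and 5 at 9 months, and 3 and 6 at 18 months. At day 28 the counts were 3 and 0, 0 and 1, and 2 and 2. The median log2 fold changes at day 12 were 0.20, 0.04 and -0.17. Among the interferon regulatory factors, Irf1 was higher by 1.99, 2.09 and 2.62 at day 12 and by 1.02, 0.80 and 1.51 at day 28, where the 9-month value was not called. Irf7 was higher by 2.11, 2.22 and 3.03 at day 12, and its values of 0.22, 0.12 and 1.15 at day 28 were not called. Both are induced by interferons, as is Irf8, whose intervals are given above. Irf5, a factor of inflammatory cytokine genes, was lower at day 12 (-0.60, -0.87 and -0.59) and was called at day 28 at 18 months (-0.63).

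Within the C/EBP family Cebpd was lower at day 12 (-1.60, -1.27 and -1.12) and, of the day 28 values, called at 18 months (-1.18). Cebpg was also lower at day 12 (-0.69, -1.18 and -0.83) and called at no age at day 28. Maff, a small MAF protein without an activation domain, moved opposite to Maf, with 3.49, 1.55 and 2.58 at day 12 and 3.26, 1.88 and 2.60 at day 28, called at 3 and 18 months on both days. The adjusted p of Maff at 9 months was 0.051 at day 12 and 0.0504 at day 28 in edgeR's test. Maff was a low transcript, with a median of 5.34 CPM over the 62 libraries and no counts in 3.

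**Figure D5:**
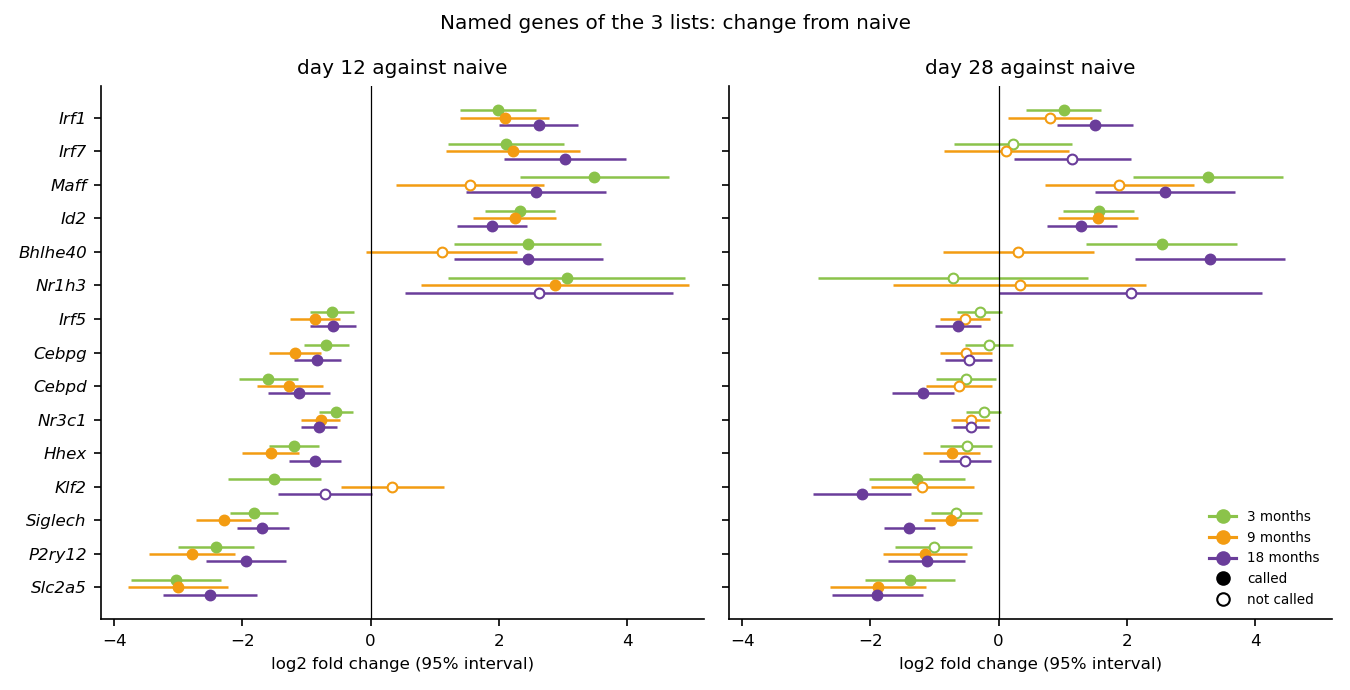
Log2 fold change from naive (x axis) with 95% interval for the 15 genes named from the 3 lists, at day 12 (left) and day 28 (right), by age. Filled points passed an adjusted p of 0.05. At day 12 Irf1, Irf7 and Id2 are filled above 0 and Irf5, Cebpg, Cebpd, Nr3c1 and Hhex below 0 at all ages, and the 3 homeostatic genes at the bottom are the lowest.

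A further list held 26 other transcription factors of microglia and macrophages, all tested. At day 12, 4 were higher and 4 lower at 3 months, 4 and 2 at 9 months, and 2 and 6 at 18 months, with medians of -0.09, 0.08 and -0.22. At day 28 the counts were 2 and 1, 1 and 1, and 2 and 1. Id2, an inhibitor of helix-loop-helix factors, was higher in all 6 comparisons, by 2.33, 2.25 and 1.89 at day 12 and by 1.56, 1.55 and 1.29 at day 28. Bhlhe40, a helix-loop-helix repressor, was higher at 3 and 18 months on both days (2.45 and 2.46 at day 12, 2.55 and 3.29 at day 28), and its 9-month values were 1.11 and 0.31. Bhlhe40 had a median of 11 CPM over the 62 libraries and no counts in 3. Nr1h3, which encodes the sterol sensor LXR alpha, was higher at day 12 at 3 and 9 months (3.06 and 2.87), and its SEs were 0.92 and 1.04. It was near the floor, with a median of 0.882 CPM and no counts in 17 of the 62 libraries. Of the genes that fell, Hhex, a homeobox factor, was lower at day 12 at all ages (-1.20, -1.56 and -0.87) and Nr3c1, the glucocorticoid receptor, likewise (-0.54, -0.78 and -0.81). Klf2 was called lower at 3 months at day 12 (-1.50), and its values at 9 and 18 months were 0.33 and -0.71.

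The third comparison was of age. In naive microglia no member was called at 9 or 18 against 3 months at an adjusted p under 0.1, where 0% and 0.11% of all genes were called. No member had an unadjusted p under 0.05 there in edgeR's test, and DESeq2 called 0. The intervals at 18 against 3 months were -0.56 to 0.28 for Maf, -0.35 to 0.31 for Mef2c, -0.41 to 0.34 for Mef2a and -0.60 to 0.29 for Sall1 on the log2 scale. At day 12 Cebpb was called at both ages, at 1.19 for 9 against 3 months (SE 0.27, adjusted p = 0.0224) and 1.09 for 18 against 3 months (SE 0.27, adjusted p = 0.0401), where 1.65% and 1.97% of all genes were called. Without the library with equal counts the first became 0.68 (adjusted p = 0.26). The second was lost without 18-month-old female replicate 4 (0.81, adjusted p = 0.258), male replicate 2 (0.73, adjusted p = 0.345) or 3-month-old female replicate 3 (1.03, adjusted p = 0.14).

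The other members did not pass at day 12. For Maf the difference was -0.62 at 9 against 3 months (95% interval -1.04 to -0.20, adjusted p = 0.145) and -0.56 at 18 against 3 months (-0.98 to -0.14, adjusted p = 0.184, edgeR). Without the 9-month-old male replicate 2, Maf (-0.91, adjusted p = 0.00512) and Mef2a (-0.58, adjusted p = 0.0656) also passed at 9 against 3 months. At 18 against 3 months Maf passed without the 18-month-old female replicate 2 (-0.75, adjusted p = 0.0549), and Sall1 (-0.73, adjusted p = 0.0598) and Cebpa (-1.49, adjusted p = 0.0243) passed without male replicate 3. At day 28 no member was called, with 0% and 0.0442% of all genes, none of the 9 had an unadjusted p under 0.05, and DESeq2 called 0. The difference between ages in the change from naive was itself tested, and no member passed at 9 or 18 against 3 months at day 12 (0.0368% and 0.155% of all genes) or at day 28 (0% and 0%). For Cebpb at day 12 the difference was 1.07 (95% interval 0.23 to 1.91, adjusted p = 0.594) and 1.18 (0.39 to 1.97, adjusted p = 0.202), and for Maf it was -0.36 (adjusted p = 0.977) and -0.42 (adjusted p = 0.647, edgeR). At 18 months it passed for Cebpb without day 12 male replicate 3 (1.38, adjusted p = 0.0841), and with no filter on low counts it passed at 9 (1.08, adjusted p = 0.049) and 18 months (1.18, adjusted p = 0.00584). Cebpb was the only member with an unadjusted p under 0.05 in either. At day 28 no member had an unadjusted p under 0.05, and DESeq2 called 0 members in all 4 of these tests.

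Sex was compared last. Males against females in naive microglia gave 0 called members and 0.081% of all genes, and Mef2c was the only member with an unadjusted p under 0.05 (0.29, 95% interval 0.00 to 0.57, adjusted p = 0.641, edgeR). The difference between the sexes in the change from naive called no member and 0% of all genes at day 12, and 0 members and 0% at day 28. With no filter on low counts Cebpb was called at day 12 (0.93, adjusted p = 0.0336, edgeR). At day 12, 3 members had an unadjusted p under 0.05. Mef2c was at -0.56 (95% interval -0.95 to -0.18, adjusted p = 0.668) and Maf at -0.66 (-1.16 to -0.16, adjusted p = 0.751), males minus females, and Cebpb was at 0.92 (0.25 to 1.60, adjusted p = 0.737, edgeR). At day 28 no member had an unadjusted p under 0.05, and DESeq2 called 0 members in all 3 sex comparisons. Group medians of Maf at day 12 were 104 CPM in females and 70.2 CPM in males at 3 months, 56.5 and 41.7 CPM at 9 months, and 73.3 and 43.5 CPM at 18 months.

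Collection day, which the labels give as 2 batches, was held constant by fitting the uncorrected counts of each day alone. All 17 member changes called against naive kept their direction on both days (34 of 34 values). Several were called on only 1 of the days, and Maf at day 28 at 9 months was not called on the first (-0.58). Others were called on neither day. These were Mef2a at day 12 at 3 months (-0.67 and -0.48) and Sall1 at day 12 at 9 months (-0.98 and -0.59). Cebpb at day 12 at 9 months and Mef2c at day 28 at 18 months (-0.35 and -0.66) were not called on either day as well. Some groups held only 1 library on a given day. For Maf at day 12 the log2 fold changes were -1.45 and -1.12 at 3 months, -1.73 and -1.44 at 9 months, and -1.14 and -1.97 at 18 months on the first and second collection day. At 18 months the changes were smaller on the first day, with -0.32 against -1.18 for Mef2c, -0.27 against -1.24 for Mef2a and -0.25 against -0.80 for Sall1. For Cebpb they were 1.16 and 0.23 at 9 months and 0.34 and 1.03 at 18 months. The 18-month-old day 12 female replicates 1 and 2, with high homeostatic sums, and naive female replicate 1 were of the first day. The library with equal counts was also of the first day. The 18-month-old day 12 female replicate 4 and male replicate 2, highest in Cebpb at that age, were of the second. The part of these libraries in the differences between the days was not tested.

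Across the 18 group means of log2 CPM, Maf, Mef2a, Mef2c and Sall1 moved together, with Pearson's r of 0.92 for Maf and Mef2c, 0.88 for Maf and Mef2a, 0.89 for Mef2a and Mef2c and 0.85 for Maf and Sall1. These points share libraries and depth, and r is given as a description. Cebpb ran opposite to them (-0.60 with Maf and -0.70 with Sall1), and Irf8 was near 0 with Maf (-0.04). Over all tested genes, the profiles most like that of Maf were Abcb4 (0.961), Tcf7l2 (0.954) and Smap2 (0.953), and Smap2 was also nearest to Sall1 (0.911), before Mbnl1 (0.899) and Tln2 (0.895). Nearest to Mef2a were Abca9 (0.96), Arhgap5 and Mtdh (0.95 each), and nearest to Mef2c were Slf2 (0.96), 8030423J24Rik and Tnfrsf17 (0.95 each). For Spi1 they were Rad9a (0.888), Aup1 (0.885) and Vrk1 (0.876), for Runx1 Slc38a6 (0.885), Wwc2 (0.87) and Mdm4 (0.868), and for Cebpb Ppa1 (0.881), Sae1 (0.858) and Mpnd (0.847). Irf8 and Cebpa had no close profile, with Psmd13 (0.765) and Tomm40 (0.754) among the nearest to Irf8 and Syk (0.768), Reps2 (0.759) and Spin1 (0.724) nearest to Cebpa.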

How the data were processed

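RNA from 600 sorted cells per retina was amplified with SMART-Seq v4, which keeps no strand, so reads of overlapping antisense genes cannot be told apart. The authors aligned single-end reads with STAR (2.7.8a) to mm10, counted them per gene with featureCounts on UCSC refGene, and adjusted for collection day with ComBat_seq. The deposited values are counts, corrected and uncorrected. The labels number replicates but do not say that each came from another mouse, and p-values measure the spread between these libraries.

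The 62 libraries were fitted together with edgeR (4.0.16, R 4.3.3) as 18 means of age, sex and state, with TMM factors, filterByExpr and the quasi-likelihood test, Benjamini-Hochberg adjusted over 13584 genes. Contrasts were averaged over the sexes, or over the ages for sex. The threshold was 0.05 for comparisons of states and 0.1 for age, as in the study, and for sex and differences between changes. CPM used the same factors. Fits were tested on simulated counts. The corrected table holds 63 libraries and the uncorrected 64. The library of 18-month-old female day 28 replicate 1 was left out by the rule that chose the libraries, and kept in an alternative. No 2 of the 79 pairs of libraries within groups were identical. Alternatives were DESeq2 (1.42.0) or its size factors, no filter, glmTreat, uncorrected counts with and without collection day, each collection day alone, ages fitted alone, the disputed label as day 12, a replicate block and leaving out each library. Fits that left out a library kept the filter, the TMM factors and the dispersion (spread) trend of all libraries. The main fit was not given that trend, and the 2 kinds of fit were compared by log2 fold change and not by p-value. Calls near the threshold may therefore change with the fit and not only with the library left out. The members, lists and tests were chosen with earlier results of these data known. All members were named against naive. From each list, the 3 called genes with the smallest p in each direction at day 12 at 3 months were named, and for each member the 3 genes nearest by Pearson's r over group means. Promoters and gene positions came from RefSeq and GENCODE tables of GRCm38. A few genes these rules would name are not reported here.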

Additional observations from a re-analysis of the deposited data

Results flagged for a closer look

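In each age and state, with the sexes together, the highest and lowest library was checked for its gap to the next by Dixon's criterion, and 8 of 81 groups of values had such a library, where about 1 in 20 passes by chance. The 9-month-old male day 12 replicate 1 stood apart for Cebpb and for Irf8, at 1030 CPM each, with the next library at 230 CPM for Cebpb and 414 CPM for Irf8. The counts of both genes were 2634 in that library in both tables, and in the uncorrected table C3ar1 had that count as well. Of the 806 genes above 500 counts in that library, 28 had the same value in both tables.

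For Mef2a the 9-month-old male day 12 replicate 2 was at 400 CPM, with the next at 242 CPM. For Sall1 the 18-month-old male day 12 replicate 3 was at 254 CPM, with the next at 138 CPM, and the 3-month-old female day 28 replicate 1 was at 279 CPM, with the next at 167 CPM. For Runx1 the 3-month-old female day 12 replicate 3 was at 178 CPM, with the next at 120 CPM. For Cebpa, the member with the lowest counts, the 3-month-old female naive replicate 4 was at 14.7 CPM, with the next at 8.72 CPM, and the 18-month-old male day 12 replicate 3 was at 13 CPM, with the next at 4.72 CPM. No difference between ages or sexes in the change from naive passed its test for a member as reported, and the settings under which Cebpb passed are given with the alternatives.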

How the results depend on the processing

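Over the alternatives other than leaving out a library, the 24 called changes of single members kept their direction in 267 of 267 values and their call in 215. No replicate pairing is given by the labels, same-numbered libraries of different groups did not deviate together (mean r -0.0114 against 0.00407 for other pairs), and with the replicate number as a block the counts of called members equalled those reported in all 22 comparisons, the only changed direction being Mef2a at day 28 at 9 months (0.01). The counts of called members moved by over 1.5 times as follows, and the cause was not tested. At day 12 against naive, glmTreat called 0, 1 and 1 members at 3, 9 and 18 months, the first collection day alone 1, 2 and 0, the second collection day alone 3 at 9 months, and uncorrected counts without a batch term 3 at 18 months. At day 28 against naive, glmTreat called 0 at each age, the first collection day alone 0 at 3 and 18 months, the second collection day alone 1 at 18 months, and DESeq2 called 2 at 3 months. Fits of the ages alone called 2, 0 and 1 at day 28, uncorrected counts without a batch term 0 at 9 and 1 at 18 months, and no filter 1 at 18 months. For day 28 against day 12, fits of the ages alone called 1, 1 and 0 members at 3, 9 and 18 months, and at 18 months the disputed label taken as day 12, the left-out library kept and uncorrected counts without a batch term each called 0. For ages at day 12, DESeq2 called 2 at 9 months, and uncorrected counts without a batch term 0 at 18 months. With no filter on low counts, Cebpb was called in the difference of its day 12 change between 9 and 3 months (1 member, 1.08, adjusted p = 0.049), 18 and 3 months (1 member, 1.18, adjusted p = 0.00584) and the sexes (1 member, 0.93, adjusted p = 0.0336, edgeR).

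Directions changed only in uncalled values. On the first collection day alone these were Cebpb (0.15) and Irf8 (0.13) at day 12 at 3 months, Irf8 (-0.07) and Spi1 (0.05) at day 12 at 9 months, and at day 28 Mef2a at 9 (0.34) and 18 months (0.13) and Sall1 at 9 (0.36) and 18 months (0.36). On the second collection day alone they were Irf8 at day 12 at 9 (-0.15) and 18 months (0.00), and at day 28 Cebpa at 3 (-0.01) and 9 months (-0.56) and Cebpb at 9 (0.10) and 18 months (0.16). Uncorrected counts gave Cebpa -0.03 with and -0.01 without collection day at day 28 at 9 months, Irf8 0.02 and 0.07 at day 12 at 3 months, Cebpb 0.01 at day 28 at 9 months with it and 0.01 at day 12 at 3 months without it. DESeq2 and its size factors each gave Cebpb 0.01 at day 28 at 9 months, no filter gave Irf8 0.00 at day 12 at 3 months, the disputed label as day 12 gave Runx1 -0.01 at day 12 at 18 months, and the left-out library kept gave Cebpb 0.14 at day 28 at 18 months.

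Leaving out 1 library at a time kept the direction of called changes in 329 of 329 values and the call in 288. Counts of called members ran from 3 to 6 and 3 to 5 at day 12 at 9 and 18 months, 1 to 2, 0 to 1 and 1 to 3 at day 28 at 3, 9 and 18 months, 2 to 4 and 0 to 2 for day 28 against day 12 at 9 and 18 months, 0 to 3 for either age against 3 months at day 12, and 0 to 1 for the difference between 18 and 3 months in the day 12 change. Uncalled values that changed direction ran from -0.80 to 0.09 for Cebpa at day 12 at 18 months, -0.20 to 0.18 for Cebpa and -0.21 to 0.09 for Cebpb at day 28 at 9 months, -0.01 to 0.20 and -0.21 to 0.02 for Cebpb at day 28 at 3 and 18 months, -0.06 to 0.03 and -0.16 to 0.25 for Irf8 at day 12 at 3 and 9 months, -0.30 to 0.00 for Mef2c at day 28 at 9 months, and -0.06 to 0.19 for Runx1 at day 12 at 18 months. Groups left with 1 library were assumed to vary like the others. Cebpa rested on 8 to 106 counts per library.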

Other observations

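The remaining marker lists gave the following sums at day 12. Proliferation markers, genes of dividing cells, had medians of 36.1, 28.8 and 21.1 CPM in naive and 69.9, 389 and 328 CPM in day 12 microglia at 3, 9 and 18 months, and of 18.5, 11.7 and 17.7 CPM at day 28. Photoreceptor markers had medians of 2400, 3260 and 2510 CPM in naive and 1170, 925 and 1490 CPM in day 12 libraries. Müller glia markers ran from medians of 320 to 349 CPM in naive to 374 to 483 CPM at day 12, and B cell markers from 80.6 to 87.3 CPM to 39.5 to 54.5 CPM.

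The library of 9-month-old male day 28 replicate 1, which is in the uncorrected table only, had, as uncorrected counts, 211 CPM of Sall1, 369 of Spi1, 338 of Irf8, 136 of Maf, 303 of Mef2a, 350 of Mef2c, 112 of Runx1, 11.2 of Cebpa and 173 of Cebpb. The library of 18-month-old female day 28 replicate 1, which was left out of all fits but an alternative, had by the same measure 32.9 CPM of Maf, 220 of Mef2a, 260 of Mef2c, 118 of Sall1 and 443 of Cebpb, of which Cebpb lay above the range of the 18-month-old day 12 libraries in uncorrected counts (93.2 to 328 CPM) and the other 4 genes lay within theirs, Maf near its lower end (31.4 to 114 CPM). It also had 534 CPM of Spi1, 470 of Irf8, 98.2 of Runx1 and 3.24 of Cebpa. This library was of the first collection day and the day 12 libraries were of both, with no adjustment for day in these values. In corrected counts the 18-month-old day 12 range of Cebpb was 102 to 537 CPM, so the place of this library can depend on the counts used.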
